A study of Homo sapiens with 3 samples.

Results

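The genes described here encode the protein machinery of mitochondrial respiration: the subunits and named assembly factors of respiratory complexes I to V and the proteins of the mitochondrial ribosome. Members were taken by gene symbol from 2 deposited tables of exon-skipping events: every row whose symbol starts with NDUF, COX and a digit, ATP5, UQCR, MRPL and a digit or MRPS and a digit, or is SDHA, SDHB, SDHC or SDHD. The rule used no measured value. It found 143 genes with 407 skipped exons, of 11222 genes with 39416 skipped exons in both tables together. The RS2 table held 461 member events from 134 genes among its 40702 events, and the RS3 table held 470 member events from 134 genes among its 42518 events. Of the genes, 125 were listed in both tables, 9 only in RS2 and 9 only in RS3, and 308 of the exons were listed in both. Symbols are those of the tables, and 19 members have a newer name.

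The libraries came from BJ cells, an established line of human foreskin fibroblasts, taken 8 days after induction of viral OSKM, the factor set OCT4, SOX2, KLF4 and MYC used to reprogram cells to pluripotency. The 3 libraries were 1 with SMAD3 siRNA (labelled SMAD3 Knock-down), 1 with SFRS11 siRNA (labelled SFRS11 Knock-down; SFRS11 is a splicing factor now named SRSF11) and 1 with non-targeting siRNA (labelled WT), so no group had a replicate. The libraries coded RS2 and RS3 were each compared with the same other library, called the comparator here, and no label or header ties a code to a siRNA. All statements are therefore about coded libraries and not about a knockdown, and the 2 tables are not independent because they share the comparator.

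Respiratory complexes I to IV pass electrons from NADH and succinate to oxygen, and complex V, the ATP synthase, uses the resulting proton gradient to make ATP. Most of their subunits are encoded in the nucleus, while a core set is encoded in mitochondrial DNA and made by the mitochondrial ribosome, whose own proteins are all nuclear. The move from fibroblast to pluripotent cell is known for a shift from respiration towards glycolysis. Skipping of a coding exon whose length is a multiple of 3 keeps the reading frame, and skipping of another coding exon changes it.

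Each value below is a difference in inclusion level, the share of transcripts across a region that keep the exon, runs from -1 to 1 and is copied from the authors' deposited tables with its p-value and FDR. In bulk RNA an inclusion level averages over all cells, so a change within cells and a change in the mix of cells cannot be told apart. A positive difference means higher inclusion in RS2 or RS3 than in the comparator. Calls rest on the authors' deposited tables: an FDR under 0.05 together with a difference of 0.1 or more in either direction. These p-values and FDR compare 2 libraries, and the read depth behind each event is unknown, so no interval is given. One exon can stand in several rows that differ in flanking exons the tables do not list. Of the member exons, 79 had several rows in the RS2 table and 84 had several in the RS3 table.

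Few events of these genes were called in either table. In RS2, 0 of 461 member events were called, against 0.0712% of all events of that table, and 0 of 134 member genes had a called event, against 0.238% of all genes. An FDR under 0.05 at any size was reached by 0 member events in RS2, against 0.165% of all events. At an unadjusted p under 0.05 there were 16 member events in RS2, which is 3.47%, against 4.52% of all events. In RS3, 4 of 470 member events were called (0.851%), against 0.967% of all events. These 4 events lay in 2 genes, MRPL55 and NDUFB6, which is 1.49% of the member genes, against 3.06% of all genes. An FDR under 0.05 at any size was reached by 9 member events in RS3 (1.91%), against 1.64% of all events, and an unadjusted p under 0.05 by 36 (7.66%), against 7.61%. The members' shares of called events thus lay close to those of the whole tables, and no excess or lack of calls is read from them. Of the 3 RS3 calls with higher inclusion, all were in MRPL55, where the background was 0.23% of all events, and the 1 call with lower inclusion was in NDUFB6, where the background was 0.736%. With 0 member events called in RS2, no member exon could be called in both tables.

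The differences of the member events were small as a group. The median absolute difference was 0.006 for members in RS2, against 0.018 for all events, and 0.008 for members in RS3, against 0.02 for all events. Differences under 0.01 in size made up 257 member events in RS2 (55.7%, against 37.4% of all events) and 251 in RS3 (53.4%, against 35.4%). Differences of at least 0.1 made up 63 member events in RS2 (13.7%, against 19.2%) and 74 in RS3 (15.7%, against 21.2%). The signed median was 0 for members in RS2 and -0.001 in RS3, the same as over all events of each table. Cytosolic ribosomal proteins, the matching machinery outside the mitochondrion, had smaller differences still: their median absolute difference was 0 in both tables, with 11 of 260 events at 0.1 or more in RS2 and 7 of 260 in RS3. Whether depth or expression level moves with these sizes was not tested, because the tables used here give neither.

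**Figure D1:**
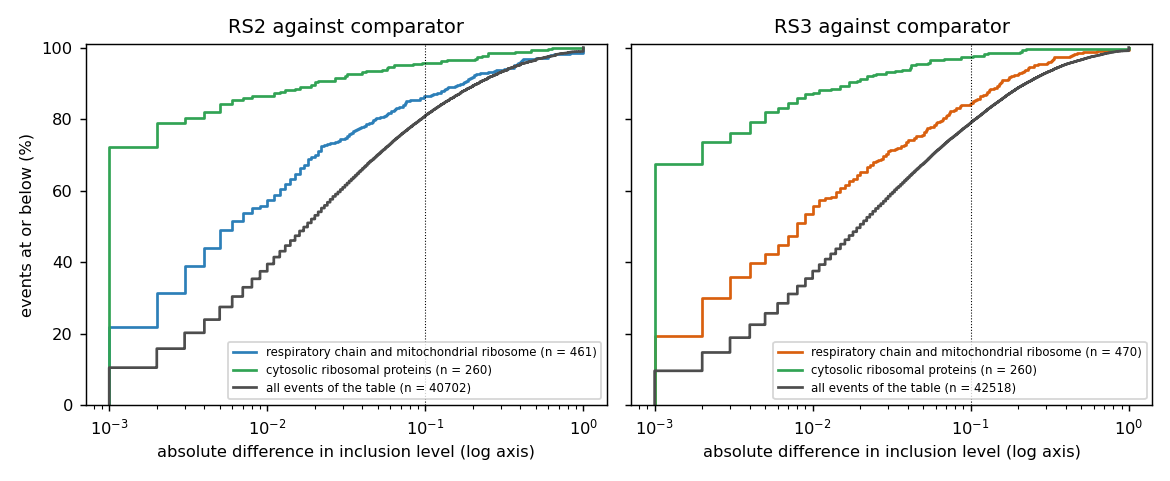
Cumulative share of events (vertical axis, percent) at or below an absolute difference in inclusion level (horizontal axis, log scale, values under 0.001 drawn at 0.001) in RS2 (left) and RS3 (right) against the comparator. Coloured lines are the respiratory chain and mitochondrial ribosome genes, green lines the cytosolic ribosomal proteins and dark lines all events. The members' line lies between the other two at small differences, and the dotted line marks 0.1.

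The functional groups differed in how far their events spread. Among the complex I assembly factors, 8 of 21 events in RS2 and 12 of 22 events in RS3 reached 0.1 in size, with median absolute differences of 0.074 and 0.103. None of these events had an FDR under 0.05, and NDUFAF6 alone gave 9 of the group's events in each table. Complex IV assembly factors had 0 of 9 events at 0.1 or more in RS2 and 1 of 9 in RS3. For 22 further assembly factors outside the symbol rule the shares were 13.6% in RS2 and 22.9% in RS3, against 19.2% and 21.2% of all events. The large subunit of the mitochondrial ribosome had 16 of 118 events at 0.1 or more in RS2 and 25 of 118 in RS3, and the small subunit had 13 of 66 and 13 of 70. Complex I subunits had 17 of 127 and 11 of 115, of which 4 and 2 were rows given the symbol NDUFB8 but the gene identifier of a longer overlapping locus, complex V had 6 of 64 and 7 of 64, and complex IV subunits had 1 of 23 and 4 of 35. The groups follow the symbols, so complex V here includes ATP5S and ATP5SL, whose current symbols are DMAC2L and DMAC2. Complex III had 0 of 13 events at 0.1 or more in RS2 and 0 of 15 in RS3. At the level of genes, all events stayed under 0.05 in size in 87 of 134 member genes in RS2 and in 79 of 134 in RS3.

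**Figure D2:**
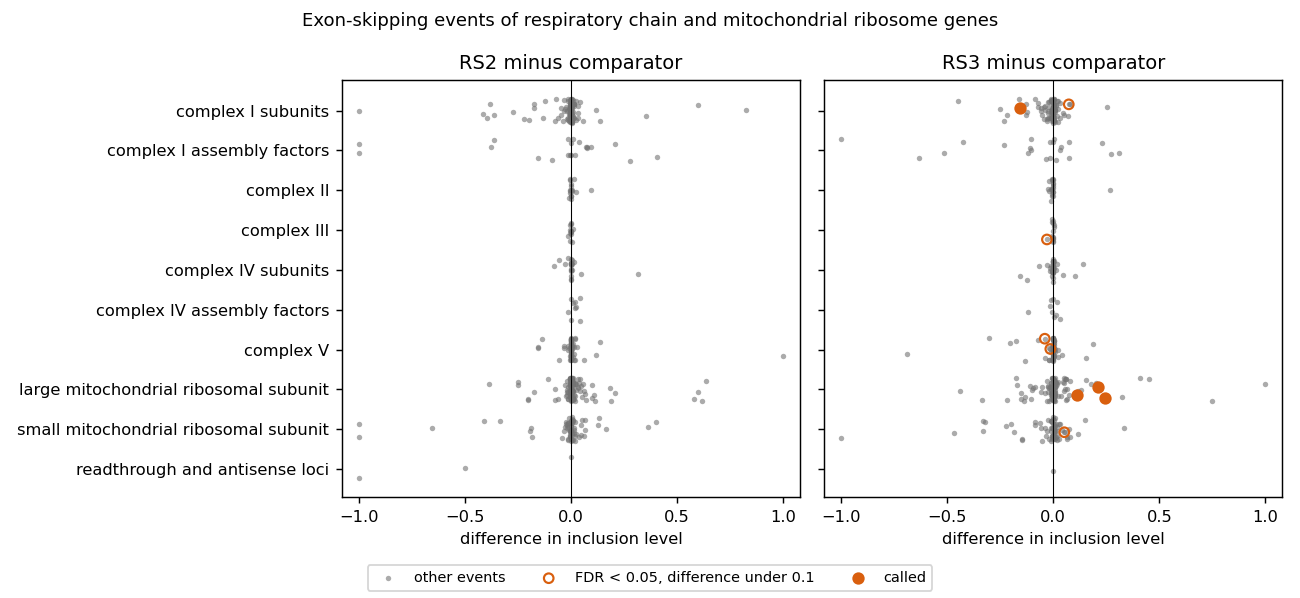
Deposited difference in inclusion level (horizontal axis, library minus comparator) of every member event by functional group (rows), for RS2 (left) and RS3 (right); vertical scatter within a row is only for display. Filled orange points are the 4 called events and open orange circles the 5 other events with an FDR under 0.05, all in RS3, while most grey points sit near 0.

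NDUFB6, an accessory subunit in the membrane arm of complex I, held the only called member event outside the ribosome. The 93-base exon at chr9:32570958-32571050 (hg19, minus strand) had rows at -0.158 and -0.024 in RS3 in the authors' deposited table, against rows at -0.037 and -0.022 in RS2. All 4 rows were below 0, and only the RS3 row at -0.158 passed the FDR threshold, with p = 0.000184 and FDR = 0.0158 in the authors' deposited table. The exon is exon 2 of 4 in GENCODE release 29 and adds 31 codons, so the 128-codon reading frame would have 97 codons without it. The neighbouring exon of NDUFB6, 45 bases at chr9:32558908-32558952, was the complex I exon with the smallest p in RS2. It had rows at -0.125 and -0.223 in RS2 (p = 0.0118 and 0.0633, FDR = 0.78 and 1) and rows at -0.059 and -0.060 in RS3, so again all 4 rows of the authors' deposited table were below 0 and none passed. It is exon 3 of 4 and adds 15 codons. For both NDUFB6 exons, rows of an exon can share reads and both tables share the comparator. The 4 signs of each exon are therefore not independent observations. Both exons are printed in transcript direction from GENCODE release 29, with the skipped exon in capitals and 15 bases of the flanking exons in lower case, because together they show which in-frame stretch of NDUFB6 each event removes.
NDUFB6 93-base exon: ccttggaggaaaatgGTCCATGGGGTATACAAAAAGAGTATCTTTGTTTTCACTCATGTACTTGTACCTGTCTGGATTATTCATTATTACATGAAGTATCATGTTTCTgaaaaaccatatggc
NDUFB6 45-base exon: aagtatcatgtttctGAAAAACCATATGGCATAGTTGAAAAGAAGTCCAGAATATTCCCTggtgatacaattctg

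NDUFV3, an accessory subunit of the NADH-oxidising module, is known in a long and a short form that differ by a large exon. That exon, 1095 bases at chr21:44323292-44324386, had a difference of 0.073 in RS3 (p = 4.23e-05, FDR = 0.00486) in the authors' deposited table, against -0.010 in RS2 (p = 0.659). It passed the FDR threshold in RS3 and stayed under 0.1 in size. It is exon 3 of 4 of the 1 coding transcript that holds it, and its length is a multiple of 3. NDUFA8, an accessory subunit on the intermembrane side, lay just outside the FDR threshold: its 164-base exon had rows at -0.070 (p = 0.00083, FDR = 0.0504) and -0.028 in RS3, against 0.016 and 0.024 in RS2, in the authors' deposited table.

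The assembly factors of complex I build its arms and are not part of the finished enzyme. NDUFAF7, which methylates a core subunit, had a difference of -0.111 at its 161-base exon in RS3 (p = 0.00155, FDR = 0.0802) in the authors' deposited table, against -0.012 in RS2 (p = 0.557). Its 59-base exon had -0.427 in RS3 and -0.155 in RS2, with FDR = 1 in both. NDUFAF6, required for an early step of assembly, had its lowest RS3 p in the authors' deposited table at a 119-base exon, with a difference of -0.632 (p = 0.0119, FDR = 0.31), against -0.379 in RS2 (p = 0.327). A 193-base exon of NDUFAF6 had 0.271 in RS3 and 0.405 in RS2, and an overlapping 124-base exon had 0.231 and 0.28. These NDUFAF6 exons occur in GENCODE release 29 only in transcripts marked for nonsense-mediated decay, the pathway that degrades transcripts with an early stop. NDUFAF1, a factor for the membrane arm, had -0.104 at a 254-base exon in RS3 (p = 0.0962, FDR = 0.831), against 0.018 in RS2, in the authors' deposited table. The single NDUFAF3 exon had 0.002 in both tables, and NDUFAF2 rows ran from -0.015 to 0.209 in RS2 and from -0.233 to 0.036 in RS3.

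Complex II, which oxidises succinate, had 17 events in RS2 and 21 in RS3. The smallest p of any member event in RS2 belonged to SDHC, a membrane anchor of the complex. Its 102-base exon at chr1:161298186-161298287 (plus strand) had a difference of 0.092 in RS2 (p = 0.00294, FDR = 0.429) in the authors' deposited table, against -0.023 in RS3 (p = 0.548). The signs differed between the libraries, and neither value passed. The exon is exon 3 of 6 and adds 34 codons, and the 169-codon frame would have 135 without it; it is printed because it is the RS2 member event with the smallest p. SDHA, the flavoprotein that holds the active site, had 7 events in RS2, which ran from -0.002 to 0.005, and 8 in RS3, which ran from -0.010 to 0.001. SDHB, the iron-sulfur subunit, had 1 event in each table, at -0.005 in RS2 and 0.001 in RS3. SDHD, the other anchor, had events from -0.005 to -0.001 in RS2 and from -0.004 to 0.267 in RS3, where no event of complex II had an FDR under 0.05.
SDHC 102-base exon: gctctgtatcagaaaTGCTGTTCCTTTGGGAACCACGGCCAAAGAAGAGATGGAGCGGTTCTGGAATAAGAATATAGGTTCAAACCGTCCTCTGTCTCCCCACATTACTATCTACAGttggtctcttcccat

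Complex III, which passes electrons to cytochrome c, had the narrowest range of differences among complexes I to V, over 13 events in RS2 and 15 in RS3. Its median absolute difference was 0.003 in RS2 and 0.002 in RS3, against 0.002 in both for complex V. The 5 listed genes of complex III, UQCR11, UQCRB, UQCRC1, UQCRH and UQCRQ, had differences from -0.012 to 0.010 in RS2 and from -0.030 to 0.003 in RS3. In each table, 1 UQCR11 event is listed under the identifier of another locus. The value farthest from 0 was that of UQCRH, the acidic hinge subunit that contacts cytochrome c1: its 148-base exon had -0.030 in RS3 (p = 1.55e-06, FDR = 0.000296) in the authors' deposited table, against -0.012 in RS2 (p = 0.161). This exon occurs in GENCODE release 29 in 1 transcript, which is marked for nonsense-mediated decay. The FDR passed although the difference was well under 0.1. UQCRH has a near-identical intronless copy, UQCRHL, and reads shared with it could not be told apart here, so its value is uncertain.

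Complex IV, cytochrome c oxidase, had no event with an FDR under 0.05. COX5A, a nuclear-encoded subunit, had rows from -0.001 to 0.049 in RS2 and from -0.008 to 0.045 in RS3 at its 122-base exon, and the row at 0.045 had the smallest RS3 p of the subunits in the authors' deposited table (p = 0.00601, FDR = 0.207). Over all listed exons of COX5A, rows ran from -0.029 to 0.049 in RS2 and from -0.125 to 0.045 in RS3. COX5B had rows at 0.000 and 0.317 in RS2 and at 0.003 and 0.141 in RS3 at a 150-base exon found only in noncoding transcripts. COX7A2, another such subunit, had -0.028 in RS3 in the authors' deposited table (p = 0.0421, FDR = 0.606), against -0.001 in RS2. Among the assembly factors, COX20, a chaperone of the mitochondrially encoded subunit COX2, had rows at -0.119 (p = 0.00115, FDR = 0.0648) and -0.015 in RS3, against 0.042 and -0.013 in RS2, in the authors' deposited table. COX17, a copper chaperone, had 0.007 in RS2 in the authors' deposited table (p = 0.0215, FDR = 0.938) and 0.003 in RS3. COX14, which acts in the making of COX1, had 0.023 in RS2 in the authors' deposited table (p = 0.0285, FDR = 0.983) and -0.012 in RS3.

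Complex V held the event with the smallest p of all members. ATP5J2 (current symbol ATP5MF), subunit f of the membrane part, had rows at -0.040 and 0.002 in RS3 at its 117-base exon in the authors' deposited table, against 0.001 and 0.011 in RS2. The authors' deposited table gave the RS3 row at -0.040 a p of 6.21e-11 and an FDR of 2.97e-08, and the other RS3 row a p of 1. ATP5B (current symbol ATP5F1B), the catalytic beta subunit, had rows at -0.014 and 0.000 in RS3 at its 183-base exon, chr12:57038955-57039137, against -0.006 and 0.000 in RS2. The RS3 row at -0.014 had p = 1.14e-08 and FDR = 3.66e-06, and the RS2 row at -0.006 had p = 0.00733 and FDR = 0.654 in the authors' deposited table. This exon is exon 2 of 10 and adds 61 codons of 529. It lies on the minus strand and is printed as an in-frame exon with a small difference and a small FDR. ATP5H, a subunit of the peripheral stalk, had 0.019 in RS2 in the authors' deposited table (p = 0.025, FDR = 0.964) and -0.022 in RS3 (p = 0.0952).
ATP5B 183-base exon: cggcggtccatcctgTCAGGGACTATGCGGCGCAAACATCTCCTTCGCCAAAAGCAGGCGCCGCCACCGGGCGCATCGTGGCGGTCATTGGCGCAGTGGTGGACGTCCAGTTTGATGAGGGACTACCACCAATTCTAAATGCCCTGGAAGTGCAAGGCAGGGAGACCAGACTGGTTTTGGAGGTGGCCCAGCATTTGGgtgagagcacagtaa

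MRPL55, a protein of the large mitochondrial ribosomal subunit, held 3 of the 4 called events. Its 585-base exon at chr1:228296138-228296722 (minus strand) had rows at 0.060, 0.073, 0.212 and 0.452 in RS3 in the authors' deposited table, against -0.075, -0.061, -0.021 and -0.006 in RS2. All RS3 rows of this exon were above 0 and all RS2 rows below 0, and the row at 0.212 was called in the authors' deposited table (p = 9.44e-07, FDR = 0.000192). The row at 0.452 had p = 0.053 and FDR = 0.672 in the authors' deposited table and was not called. The 38-base exon at chr1:228296138-228296175 had RS3 rows from 0.017 to 0.325, of which 0.245 was called in the authors' deposited table (p = 8.03e-05, FDR = 0.00824), against RS2 rows from -0.075 to 0.048. The 67-base exon at chr1:228296656-228296722 had RS3 rows from -0.009 to 0.180, of which 0.114 was called in the authors' deposited table (p = 0.000371, FDR = 0.0267), against RS2 rows from -0.018 to 0.205. The 38-base and 67-base exons are the 2 ends of the 585-base exon, so the calls share reads and are not 3 independent observations.

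The called MRPL55 exons lie in the 5′ UTR in GENCODE release 29, upstream of the exons that hold the start codon. Over the 18 rows of such upstream exons in each table, 16 were above 0 in RS3, with a median of 0.0935 and a range from -0.009 to 0.452, and 9 of 18 were above 0 in RS2, with a median of -0.002 and a range from -0.075 to 0.205. Most of these rows are of overlapping exons that can share reads, and both tables share the comparator. The rows are therefore not independent observations, and their counts and medians are a description only. The exons that hold the start codon, of 84 and 87 bases, ran from -0.040 to 0.022 in RS3 and from 0.005 to 0.022 in RS2. The 108-base exon, which is coding, had 0.008 in RS3 and -0.006 in RS2. Among the rows given here, the larger RS3 differences of MRPL55 were in the leader exons, which carry no codons.

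**Figure D3:**
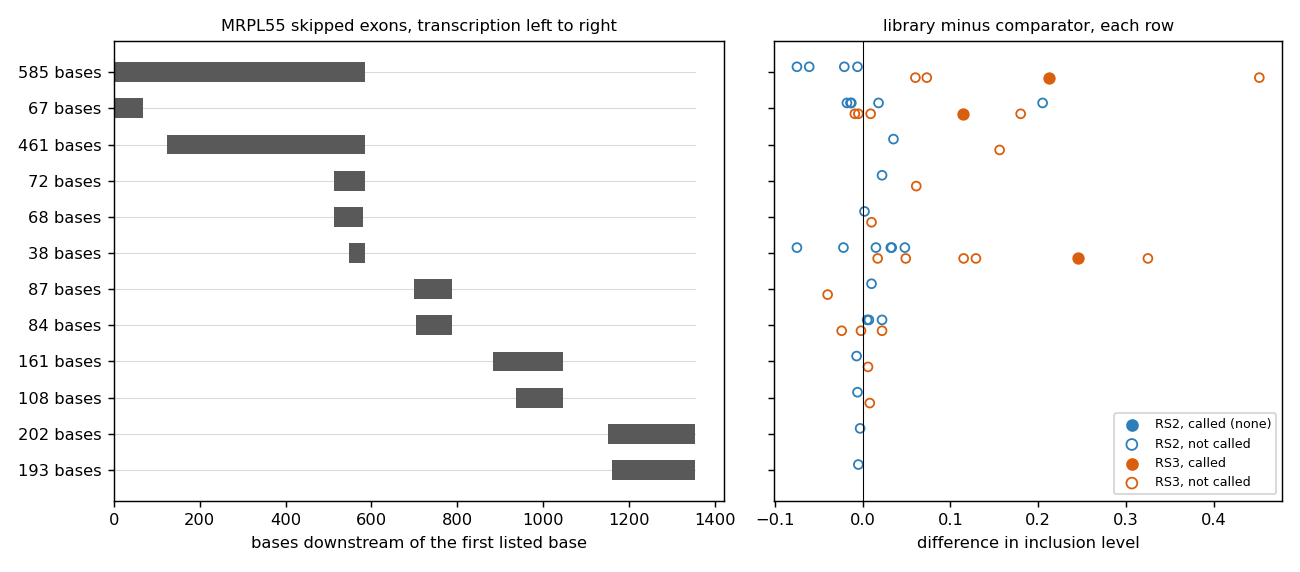
Left, MRPL55 exons listed as skipped, drawn to scale in bases downstream of the first listed base in the direction of transcription, 1 exon per line. Right, the deposited difference in inclusion level of each row of that exon in RS2 (blue) and RS3 (orange), with called rows filled; the 3 called rows, at 0.114, 0.212 and 0.245, are in exons near the 5′ end.

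Of the other members with an MRPL or MRPS symbol, MRPS18A gave the only event with an FDR under 0.05. Despite its symbol, its protein is placed in the large subunit in structures of the mammalian mitochondrial ribosome. It is counted with the small subunit above, by its symbol. Its 70-base exon at chr6:43642939-43643008 (minus strand) had 0.052 in RS3 (p = 3.76e-08, FDR = 1.08e-05) in the authors' deposited table, against 0.022 in RS2 (p = 0.0516, FDR = 1). The difference was above 0 in both libraries and under 0.1 in both. The exon is exon 5 of 6 and its length is not a multiple of 3: the 196-codon frame would run to 127 codons without it. The sequence is shown because it is the frame-changing coding exon among these events.
MRPS18A 70-base exon: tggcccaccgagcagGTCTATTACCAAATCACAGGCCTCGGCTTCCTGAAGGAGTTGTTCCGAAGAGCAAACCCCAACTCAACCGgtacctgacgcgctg

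MRPL48, in the large subunit, had in the authors' deposited table -0.202 in RS2 (p = 0.0125, FDR = 0.799) and -0.151 in RS3 (p = 0.0451, FDR = 0.628) at a 121-base 5′ UTR exon. A 125-base exon of MRPL48 had rows at -0.174 and -0.336 in RS3, against 0.039 and 0.068 in RS2, with no FDR under 0.05. The largest differences of MRPL48 pointed the other way: its 38-base exon had rows at 0.010, 0.202, 0.410 and 0.748 in RS3, against 0.003, 0.017, 0.581 and 0.597 in RS2, with FDR from 0.805 to 1. MRPL9 was listed at a 102-base exon only in RS3, at -0.154 in the authors' deposited table (p = 0.00908, FDR = 0.266). MRPL10, at the base of the stalk, had rows in the authors' deposited table at 0.041 (p = 0.0143, FDR = 0.829) and -0.174 in RS2, against 0.059 and -0.018 in RS3. MRPS18C, in the small subunit, had rows in the authors' deposited table at 0.399 (p = 0.023, FDR = 0.951) and -0.014 in RS2, against 0.115 and 0.029 in RS3. For MRPL10 and MRPS18C, rows of the same exon lay on both sides of 0 in RS2.

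**Figure D4:**
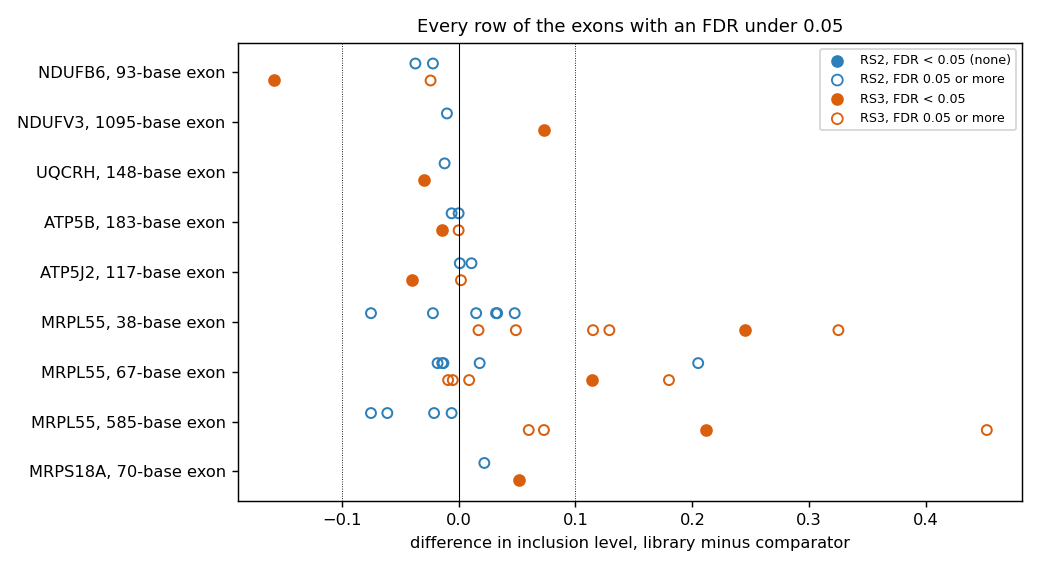
Deposited difference in inclusion level (horizontal axis, library minus comparator) of every row of the 9 exons with an FDR under 0.05 in RS3, for RS2 (blue) and RS3 (orange). Filled points have an FDR under 0.05 and dotted lines mark 0.1 in either direction; only NDUFB6 and the 3 MRPL55 exons have a filled point beyond them.

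The largest differences of member events were 1 in size, and none of these passed the FDR threshold. In RS2 there were 7 among 461 member events, in NDUFA10, NDUFAF5, NDUFAF6, NDUFA6-AS1, ATP5O, MRPS25 and MRPS28. In RS3 there were 3 among 470, in MRPL3, NDUFAF5 and MRPS28. Over all events there were 442 among 40702 in RS2 and 374 among 42518 in RS3, and no excess or lack is read from the member counts. MRPL3 had rows at 1.000 (p = 0.0173, FDR = 0.386) and 0.005 in RS3 at its 81-base exon, against 0.635 (p = 0.0448, FDR = 1) and 0.004 in RS2, in the authors' deposited table. The 177-base exon of MRPS25 had rows in the authors' deposited table at -1 (p = 0.0137, FDR = 0.812), -0.042, -0.013 and 0.364 in RS2, against -0.468, -0.028, -0.006 and 0.335 in RS3. ATP5O, the stalk subunit that confers oligomycin sensitivity, had 1.000 in RS2 with p = 0.224 at a 67-base exon in the authors' deposited table. NDUFA6-AS1, which is antisense to NDUFA6, had -1 and -0.5 at its 2 exons in RS2 and was not listed in RS3; whether reads were counted by strand is not given, so it is uncertain. The readthrough locus NDUFC2-KCTD14 had 0.001 in both tables. Within exons that had several rows, the rows spread by more than 0.1 in 28 of 79 exons in RS2 and in 25 of 84 in RS3, and lay on both sides of 0 in 36 and 31 of them.

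For 212 member exons each table had a single row, so that the values can be set side by side without choosing a row. In 172 of these exons the difference was under 0.05 in size in both tables, and in 8 it was at least 0.1 in both. The exons named next were picked for their signs, and their values are a description only. Exons with the symbol NDUFB8, that of an accessory subunit of complex I, had -0.175 in RS2 and -0.217 in RS3 at a 143-base exon, and 0.138 in RS2 and -0.086 in RS3 at a 196-base exon. The tables list both under the identifier of the overlapping locus, and GENCODE release 29 holds them in that locus only in transcripts marked for nonsense-mediated decay, so they are not exons of a coding NDUFB8 transcript found here. ATP5S, coupling factor B, had -0.139 in RS2 and -0.131 in RS3. MRPL38 had 0.616 in RS2 and 0.099 in RS3, and MRPS6 had -0.193 and -0.087. Values of opposite sign were those of NDUFB2 with -0.133 in RS2 and 0.081 in RS3, COX7B with -0.08 and 0.103, MRPS15 with 0.047 and -0.222, and ATP5O with -0.032 and 0.041 at a 113-base exon. Over the 15 exons chosen in this way, which include those of NDUFAF5, NDUFAF6, NDUFAF7 and MRPL48, the smallest FDR was 0.31, for NDUFAF6 in RS3.

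**Figure D5:**
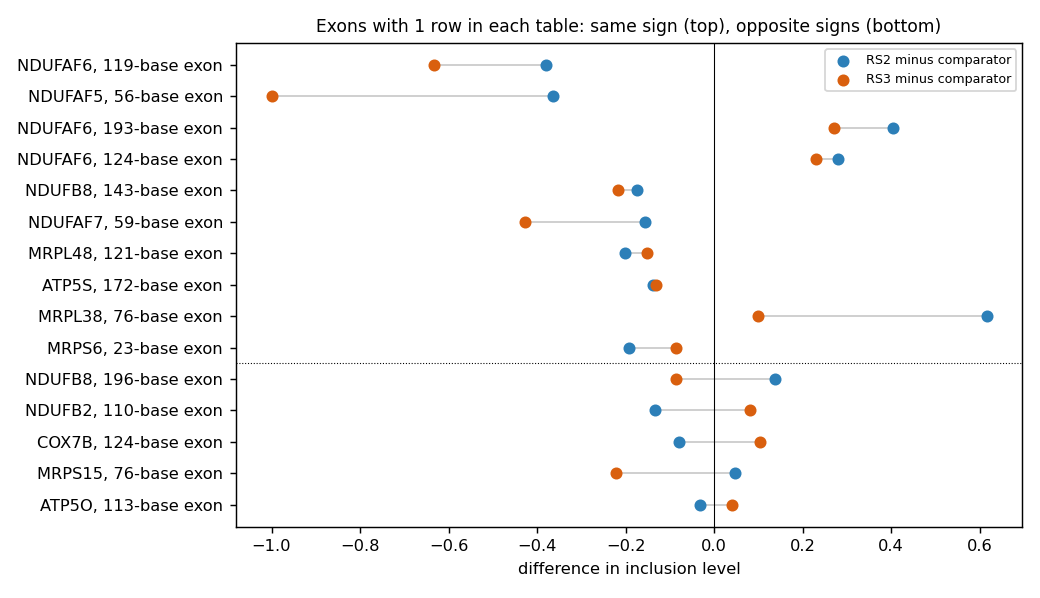
Deposited difference in inclusion level (horizontal axis) in RS2 (blue) and RS3 (orange) for 15 member exons with a single row in each table, 10 chosen for the same sign (above the dotted line) and 5 for opposite signs (below it). Both libraries were compared with the same comparator, and no point has an FDR under 0.05.

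The place of the members' skipped exons in their transcripts was read from GENCODE release 29. Of 407 exons, 389 were found (95.6%), 43 of them by a match of a single exon. Coding exons made up 217 (55.8%, against 66.3% of the exons found over all genes). Exons in no coding transcript but in at least 1 marked for nonsense-mediated decay made up 62 (15.9%, against 8.09%). These include exons with the symbols NDUFB8, SDHD and UQCR11 that are listed under the identifiers of other loci. A further 44 were part coding and part UTR (11.3%, against 7.89%), 33 were 5′ UTR (8.48%, against 8.51%) and 33 were in noncoding transcripts (8.48%, against 9.11%). Of the coding exons, 85 of 217 had a length that is a multiple of 3 (39.2%, against 45.7%). Differences of at least 0.1 were seen in 9.01% of the members' coding events in RS2 (against 15.1% of all coding events) and in 9.39% in RS3 (against 16.8%). In decay-marked exons they were seen in 27.1% of the members' events in RS2 (against 21.2%) and in 25.4% in RS3 (against 22.4%), so coding events had the lower share over all genes as well. Rows with the symbol NDUFB8 from the overlapping locus gave 4 of the members' 16 decay-marked events of that size in RS2. In RS3 they gave 2 of 16. In the 5′ UTR differences of at least 0.1 were seen in 16.7% of the members' events in RS2 (against 27.8%) and in 40% in RS3 (against 30.9%), where MRPL55 gave 9 of the members' 22 events of that size.

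Other genes of the same pathway, listed by role and outside the symbol rule, gave 0 called events of 252 in RS2 and 5 of 270 in RS3 (1.85%, against 0.967% of all RS3 events), over 59 genes in each table. In RS3, 4 of the 59 genes had a called event (6.78%, against 3.06% of all genes). Electron carriers and related proteins had 0 called events over 7 genes. The counts are small, and whether they depart from the whole table was not tested. Of 22 further assembly factors, 3 had a called event in RS3 in the authors' deposited table. ATPAF2, a chaperone for the alpha subunit of complex V, had 0.105 (FDR = 0.00362), TMEM126B, a factor for the membrane arm of complex I, had -0.129 (FDR = 0.0186), and SDHAF2, which helps attach the flavin to SDHA, had -0.299 (FDR = 0.0214) in that table. Of 30 genes of mitochondrial translation and RNA metabolism, 1 was called in RS3: MTO1, which modifies mitochondrial tRNAs, had -0.753 and -0.781 at overlapping exons of 75 and 50 bases (FDR = 4.65e-05 and 6.10e-05 in the authors' deposited table). In these lists, TIMMDC1 at -0.052 (FDR = 0.0188) and DAP3 at -0.036 (FDR = 0.0183) passed the authors' deposited FDR in RS3 but stayed under 0.1 in size. The tables list skipped exons for all 7 fibroblast markers looked up and for 0 of 4 pluripotency markers, but give no expression level, so the state of the cells was not measured here. Only a gene with an exon that can be skipped can be listed, so the listing does not show which markers were expressed.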

How the data were processed

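Exon skipping was analysed from 2 deposited tables, each a comparison of 2 of 3 mRNA-selected TruSeq libraries of BJ cells. Per the submitters' processing notes, the build was hg19 and the tools include STAR and FastQC; the sources used here do not give the splicing caller. Per the file headers, the authors deposited for each event the inclusion difference, used as a score from -1 to 1, with its p-value and FDR. The difference was read as RS2 or RS3 minus the shared comparator, from the header order and a look at rows. The columns with the inclusion levels of single libraries, 4 over both tables, were not used. No label ties these columns, or those used, to a sample. With 1 library per group, no test was run here and depth is unknown. Rows were counted as deposited, and a call needed an FDR under 0.05 with a difference of 0.1 or more in size. Named genes were every called event, the 10 genes with the smallest p per table, up to 3 per functional group, the largest difference per table, and 10 same-sign and 5 opposite-sign exons with single rows; a few further values fill out a named gene or group. The members and lists were chosen with earlier results of these data known. Exons were placed in GENCODE release 29 by gene identifier, length and shared distances between exons, and the printed sequences are from its transcripts; the sequence of the ATP5J2 exon is not reported here. Python 3.11.15 and pandas 2.3.3 were used; the counting was tested on simulated tables.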

Additional observations from a re-analysis of the deposited data

How the results depend on the processing

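In RS2, 0 member events and 0 member genes were called under every alternative run, so no member exon could be called in both tables. Over all RS2 events the share called ran from 0.027% to 0.103% across the alternative limits of FDR and difference. In RS3, 4 called events became 2 at FDR under 0.01, 2 at a difference of at least 0.2 and 0 among exons with a single row, and 6 at FDR under 0.1 and 6 at a difference of at least 0.05. Over all RS3 events, 0.967% called became 0.614% at FDR under 0.01 and 0.445% at a difference of at least 0.2. That share became 1.2% at FDR under 0.1 and 1.33% at a difference of at least 0.05. The member counts moved in the same directions at these settings, and nothing particular to these genes is read from them. The 2 RS3 genes became 1 at FDR under 0.01, 4 at FDR under 0.1, 4 at a difference of at least 0.05 and 1 at a difference of at least 0.2. Shares of all genes at these settings, and of all events among exons with a single row, are not given here. Nothing particular to the members is therefore read from these moves. The share of member events with a large difference, 13.7% in RS2, was 10.1% among exons with a single row, 19.7% at a minimum of 0.05 and 8.24% at 0.2; in RS3, 15.7% became 10.2%, 24.5% and 7.45% under the same alternatives. The cause of the lower share among exons with a single row was not tested. The other 37 values, among them these 2 counts of 6 and those with deposited p-values readjusted by Benjamini-Hochberg, with subunits only and 1 row per exon, were not counted as changed, for which a count had to stay within 1.5 times its main value. No paired analysis was possible because each group has 1 library. Without replicates or read counts, no value has an error, and the precision of a difference of 1 in size is unknown.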
